A study of Mus musculus with 32 samples.

Results

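The collagen and laminin genes were followed in RNA from tumors of 2 mouse models of Group 3 medulloblastoma, a malignant tumor of the cerebellum. Protein-coding genes were taken by symbol, as Col with a chain number or as Lama, Lamb or Lamc with a chain number. There were 56 such genes among the 37310 genes of the count table, and all 56 were among the 21024 genes with enough reads to be tested. Of these, 55 encode collagen or laminin chains. The remaining one, Col4a3bp, encodes the ceramide transfer protein and matched by its symbol only. Its level was 85.4 ± 10.01 CPM (the count of the gene over the TMM-scaled library size; SD, n = 6) in GMYC tumors and 71.4 ± 16.9 (SD, n = 8) in GTML tumors, with an adjusted p of 0.217.

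GMYC mice carry Glt1-tTA and TRE-MYC transgenes, so that a transactivator driven by the promoter of the glutamate transporter Glt1 turns on MYC unless doxycycline is given. GTML mice are the corresponding model with MYCN in place of MYC, also driven from the Glt1 promoter. Fresh-frozen biopsies of 6 GMYC tumors and 8 GTML tumors were sequenced on an Ion Torrent platform, and the ages of the mice are not in the labels. The study set a GTML tumor apart for an expression signature like that of the SHH subgroup of medulloblastoma. The labels do not say which tumor it is, so all 8 were used, and fits that leave out each tumor in turn are given. All tumors were taken as whole tissue, so each value is a mixture of tumor cells, vessels and other cells of the brain and its coverings, and fewer cells of a type cannot be told apart from less RNA per cell.

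Collagens are built from 3 chains wound around each other. Fibrillar collagens form the fibers of connective tissue, and type IV collagen forms the sheet of the basement membrane. Laminins join an alpha, a beta and a gamma chain and make the other network of that membrane. In the brain, basement membranes surround blood vessels and line the surface under the meninges, and fibrillar collagens are made mainly by fibroblast-like cells of meninges and vessels. Integrins, dystroglycan and discoidin domain receptors bind these proteins.

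The total count per tumor was 6218378 to 7279811 in GMYC tumors and 4602294 to 6317404 in GTML tumors. Collagen and laminin genes took 0.123% to 0.326% of all counts in GMYC tumors (median 0.180%) and 0.169% to 0.419% in GTML tumors (median 0.230%). The share was over 0.3% in GMYC tumor 2 and in GTML tumors 2, 6 and 8. The highest density of any member was 0.587 counts per exon base, for Col10a1, against 1.27 for the densest gene of the table. In 6 tumors (GMYC 1 to 4 and GTML 1 and 2) small nucleolar RNAs took 0.366% to 0.438% of counts, and in the other 8 they took 0.151% to 0.272%. The labels do not name this split, and its part in the results below was not tested beyond the fits given in the closing section. Counts of Y-linked genes were 4 to 16 in GTML tumors 2, 3, 5 and 8 and 1102 to 3378 in the other tumors. The low counts were thus in GTML tumors only, so Y-linked counts were not balanced between the models.

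**Figure D1:**
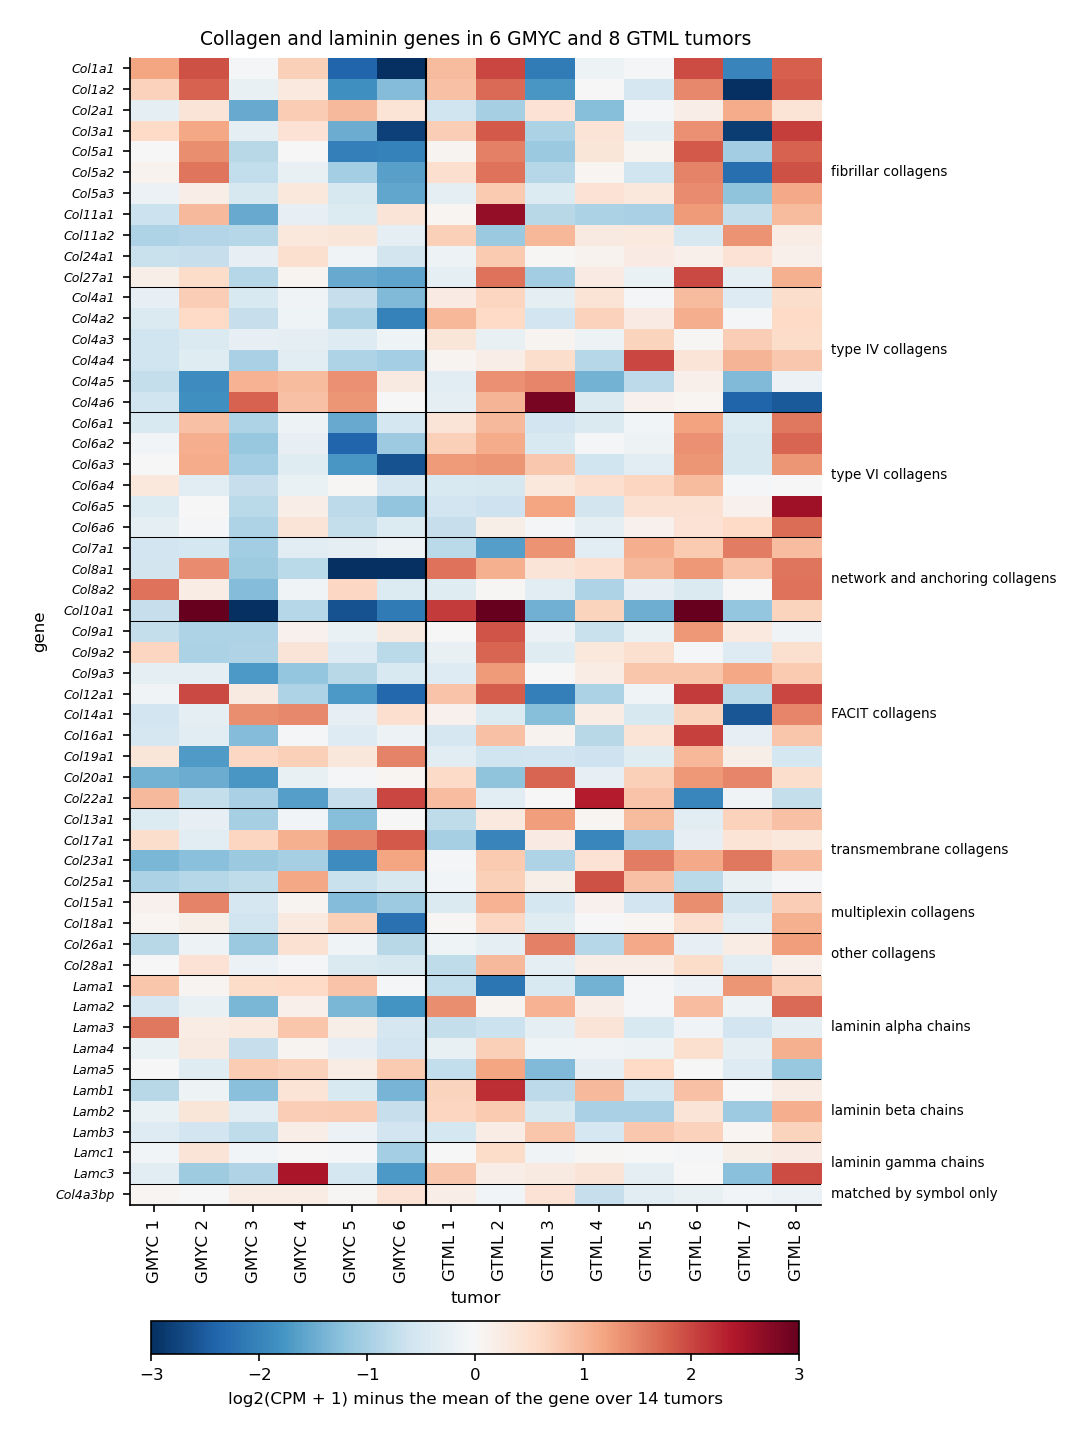
Level of 55 of the 56 genes (rows, by chain family) in each tumor (columns), as log2(CPM + 1) minus the mean of that gene over the 14 tumors, from blue (lower) to red (higher). The fibrillar collagens Col1a1, Col1a2, Col3a1, Col5a1 and Col5a2 are red in GMYC tumor 2 and in GTML tumors 2, 6 and 8, and blue in GMYC tumors 5 and 6 and GTML tumors 3 and 7.

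By length, the most abundant members were the common chains of type IV collagen. Over all 14 tumors the median level was 25.6 CPM per kb of exon for Col4a1, 22.3 for Col4a2, 17.9 for the laminin gamma chain Lamc1, 16.2 for the fibrillar collagen Col3a1 and 15.2 for the laminin alpha chain Lama1. These medians lie within each other's spread between tumors. At the other end, Col4a3, a chain of the kidney and lung basement membrane, had 0.0364 CPM per kb in GMYC tumors and 0.113 in GTML tumors.

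Col4a1 and Col4a2 encode the common chains of type IV collagen and lie head to head on chromosome 8. In RefSeq on GRCm38.p6 their annotated starts overlap by 22 bases. The 30 bases at chr8:11312801-11312830, on the strand of Col4a2, are shown because both genes start within them. The levels of these genes moved together across tumors (given with the pairs of chains), and whether the shared start bears on that was not tested. Capitals mark a GC box, the letters GGGCGG on either strand.

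Col4a2 and Col4a1 starts: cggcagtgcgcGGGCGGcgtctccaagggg

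Col1a2 and Col3a1, whose products are chains of the main fiber-forming collagens I and III, also moved together with Col1a1. The 250 bases before the RefSeq starts of Col1a2 (chr6:4505368-4505617) and Col3a1 (chr1:45311288-45311537) are shown, both on the plus strand of GRCm38.p6. Whether these stretches bear on the levels was not tested. Capitals mark GC boxes (GGGCGG), the CCAAT box named for its letters, and the letters TATAAA, each searched on either strand. Letters were matched at any distance from the start, so TATAAA here is not called a TATA box. The Col1a2 stretch holds GC boxes and a CCAAT box and no TATAAA, and the Col3a1 stretch holds TATAAA and neither of the others.

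Col1a2: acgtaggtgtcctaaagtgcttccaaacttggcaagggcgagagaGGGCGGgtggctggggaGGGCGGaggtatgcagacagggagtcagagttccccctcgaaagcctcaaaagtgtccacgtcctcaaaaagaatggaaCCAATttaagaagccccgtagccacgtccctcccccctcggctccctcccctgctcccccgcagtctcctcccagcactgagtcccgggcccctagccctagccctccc

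Col3a1: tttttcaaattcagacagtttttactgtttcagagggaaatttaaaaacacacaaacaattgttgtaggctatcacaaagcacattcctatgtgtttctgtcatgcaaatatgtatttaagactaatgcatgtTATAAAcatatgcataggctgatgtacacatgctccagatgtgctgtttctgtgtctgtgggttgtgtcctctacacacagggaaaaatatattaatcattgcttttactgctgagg

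RefSeq windows from 250 bases before to 50 after a start were at hand for 40 of the 56 genes, as 44 windows. The letters CACGTG, the E-box that MYC and MYCN bind with MAX, were in 0 of the 44 windows and in 7.15% of all 32851 windows. GGGCGG was in 26 of 44 (59.1%) against 35.7% of all windows. CCAAT was in 14 of 44 (31.8%) against 37.4%, and TATAAA was in 5 of 44 (11.4%) against 13.6%. A match or its absence describes these letters in these windows and was not tested against binding.

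The comparison of GTML with GMYC tumors asks how the transcriptome of MYCN-driven tumors differs from that of MYC-driven ones. Of the 56 genes, 45 were higher on average in GTML tumors and 11 in GMYC tumors, with a median log2 fold change (GTML over GMYC) of 0.78. Over all 21024 genes, 11033 (52.5%) were higher in GTML tumors and the median was 0.04. Few of these differences passed the limits set for the test. Genes were counted as passing at a Benjamini-Hochberg adjusted p under 0.01 in edgeR's quasi-likelihood test together with a log2 fold beyond 1 in either direction. By these limits 1 of 56 genes passed as higher in GTML tumors, Col9a3, against 2.11% of all genes. None of the 56 passed in edgeR as higher in GMYC tumors, against 1.10% of all genes. In that direction 2 genes, Col17a1 and Lama3, had an unadjusted p under 0.05, and DESeq2 passed 1, Col17a1, when it passed 2.75% of all genes. At an adjusted p under 0.05 with no limit on the fold, 5 genes were higher in GTML tumors (Col9a3, Col4a4, Lama2, Col4a3 and Col20a1) against 11.5% of all genes, and 2 in GMYC tumors (Col17a1 and Lama3) against 9.71%. With a covariate from Y-linked genes in edgeR, the adjusted p was 0.0386 for Col9a3. For the other genes just named it was above 0.05, from 0.0706 (Lama2) to 0.170 (Lama3). No gene had ranges of CPM that were apart between the models, while 2.14% of all genes lay wholly higher in GTML and 2.48% wholly higher in GMYC tumors. The shares of members are near or below those of all genes.

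Single tumors decided which genes passed. Without GTML tumor 2, 6 of 56 genes (10.7%) passed as higher in GTML tumors (Col4a3, Col4a4, Col7a1, Col9a3, Col20a1 and Lama2), when 4.96% of all genes did, and none passed as higher in GMYC tumors, when 2.80% of all genes did. The count was 2 without GMYC tumor 2 or without GTML tumor 4. It was 0 without GMYC tumor 1, 3, 4 or 5 or without GTML tumor 5, 6, 7 or 8, and without GMYC tumor 6 the single gene was Col23a1 in place of Col9a3. Over all genes, between 0.353% and 4.96% passed as higher in GTML tumors in these fits. Among the 6 tumors with small nucleolar RNAs above 0.3% of counts (4 GMYC, 2 GTML), 50 of the genes were tested and none passed, against 0% of all genes as higher in GTML and 0.0106% as higher in GMYC tumors, with a median log2 fold change of 0.52. Among the 8 tumors below 0.3% (2 GMYC, 6 GTML), 1 of 56 genes, Col8a1, passed as higher in GTML tumors, against 0.416% of all genes, and none as higher in GMYC tumors, against 0.221%, with a median log2 fold change of 1.33.

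**Figure D2:**
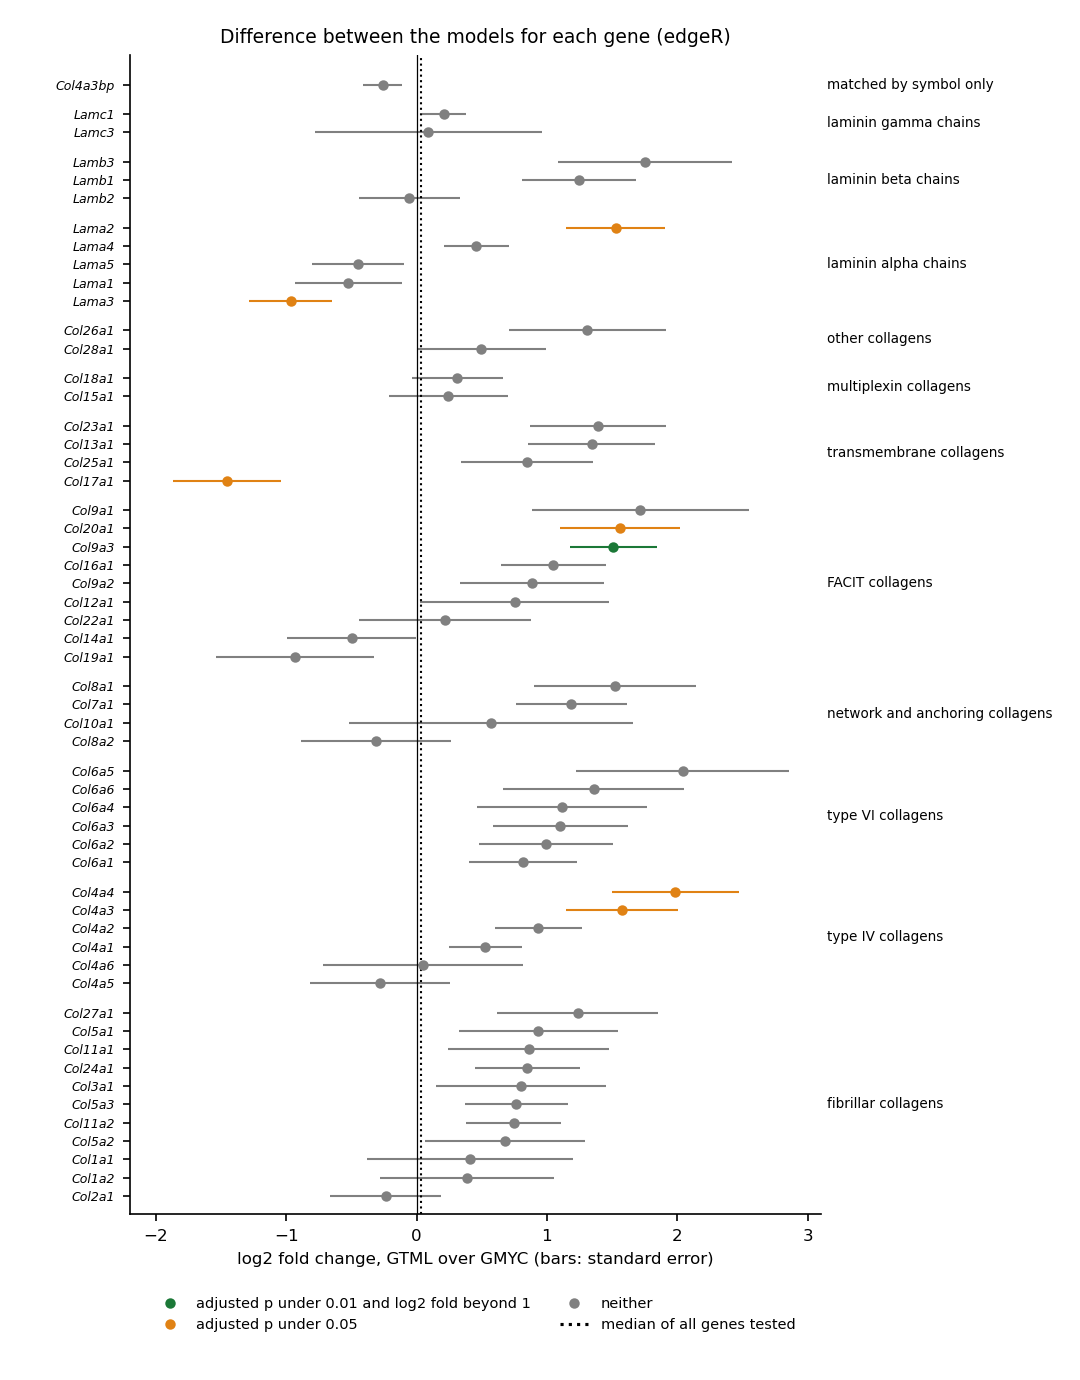
Log2 fold change (GTML over GMYC, horizontal axis) of 55 of the 56 genes, each with its standard error (bar), grouped by chain family, from edgeR over 6 GMYC and 8 GTML tumors; the dotted line is the median of all genes tested (0.04). Most points lie right of zero with bars of about 0.3 to 0.8, and 1 gene (green, Col9a3) passed both limits.

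The spread between tumors of 1 model was large. The SD of log2 CPM within models had a median of 0.92 over the 56 genes and 0.48 over all genes tested, and 52 of 56 genes were above the latter. Between the lowest and the highest of the 14 tumors, 41 of 56 genes differed by more than 10-fold or were at 0 in a tumor. The spread was largest in network-forming and fibrillar collagens (median SD 1.214 and 1.199) and smaller in type IV collagens (0.75) and laminin alpha chains (0.73). Lamc1 had the smallest SD of the chains (0.35), and Col10a1 the largest (2.25), with 1.68 CPM in GMYC tumor 3 and 258.4 CPM in GMYC tumor 2. Of the 55 collagen and laminin chains, 19 had their highest GMYC value in GMYC tumor 2 and 21 their lowest in GMYC tumor 6. Among GTML tumors, tumors 8, 6 and 2 held the highest value of 14, 12 and 11 chains.

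Fibrillar collagens, which form tissue fibers, had 10 of 11 genes with a higher mean in GTML tumors, and none passed at an adjusted p under 0.05. Col1a1, the main chain of type I collagen, had 1.84, 50.8 and 148.0 CPM as lowest, median and highest in GMYC tumors and 8.32, 56.4 and 157.8 in GTML tumors. The ranges overlapped almost wholly, and the log2 fold change was 0.41 ± 0.79 (SE) with an adjusted p of 0.727. Col1a2, its partner chain, had 22.4, 85.6 and 281.4 CPM in GMYC tumors and 9.43, 117.8 and 297.6 in GTML tumors (log2 fold change 0.39 ± 0.67, adjusted p = 0.696). For Col3a1, the chain of type III collagen, the values were 16.0, 128.5 and 266.8 CPM in GMYC tumors and 15.5, 177.7 and 499.4 in GTML tumors (log2 fold change 0.80 ± 0.65, adjusted p = 0.382). Among the 8 tumors with small nucleolar RNAs below 0.3% of counts, where GMYC tumors 5 and 6 stand alone for their model, the log2 fold changes were 3.92 for Col1a1, 2.06 for Col1a2 and 2.73 for Col3a1, with adjusted p of 0.0735, 0.217 and 0.119. Among the 6 tumors above 0.3% they were 0.47, 0.54 and 0.84, and with the split as a term over all tumors 2.08, 1.315 and 1.79 (adjusted p 0.178, 0.248 and 0.123). In all 3 genes the low end was held by GMYC tumors 5 and 6 and GTML tumors 3 and 7, and the high end by GMYC tumor 2 and GTML tumors 2, 6 and 8.

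Fn1, which encodes the matrix protein fibronectin and stands in the list of markers of fibroblasts and meninges, was high and low in the same tumors. It had 423.7 CPM in GMYC tumor 2 and 473.4, 440.2 and 390.2 in GTML tumors 2, 6 and 8, against 38.2 and 26.3 in GMYC tumors 5 and 6 and 50.1 and 76.2 in GTML tumors 3 and 7. The summed level of the list (10 of 12 genes tested, among them Dcn and Lum) was 107.7 to 477.0 CPM in GMYC tumors and 87.0 to 595.1 in GTML tumors, and Fn1 made up 20.6% to 88.8% of it. The other 11 markers summed to 53.3 CPM in GMYC tumor 2 and to 69.5 and 101.2 in GMYC tumors 5 and 6. In GTML tumors 2, 6 and 8 they summed to 121.7, 85.6 and 190.6 CPM, and in GTML tumors 3 and 7 to 36.9 and 31.5. Pdgfra alone gave 12.4 CPM in GMYC tumor 2 and 37.5 and 70.1 in GMYC tumors 5 and 6. In the same 3 tumors Lum had 5.07, 0.97 and 2.12 CPM and Dcn 5.63, 3.06 and 8.20. The sum in GMYC tumors therefore does not show whether the list as a whole followed the fibrillar collagens. Mural cell markers, 10 of 10 tested, summed to 150.7 to 529.1 CPM in GMYC and 167.9 to 718.1 CPM in GTML tumors. Their sum was 529.1 CPM in GMYC tumor 2, against 189.4 and 150.7 in GMYC tumors 5 and 6. It was 445.0, 580.5 and 718.1 CPM in GTML tumors 2, 6 and 8, against 311.0 and 167.9 in GTML tumors 3 and 7. Among the tumors just named, the mural list was thus higher where the fibrillar collagens were high, within each model. The order did not hold for all tumors. The mural sum of GTML tumor 5 was 292.0 CPM, below that of GTML tumor 3. GTML tumor 4 had a mural sum of 408.2 CPM, near that of GTML tumor 2, while their fibrillar collagens summed to 437.4 and 1254 CPM. No gene of these lists passed at an adjusted p under 0.05, and Dcn and Lum were near 0 in some GTML tumors (lowest 0.19 and 0 CPM). The part of these cells in the levels of the fibrillar collagens was not tested.

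**Figure D3:**
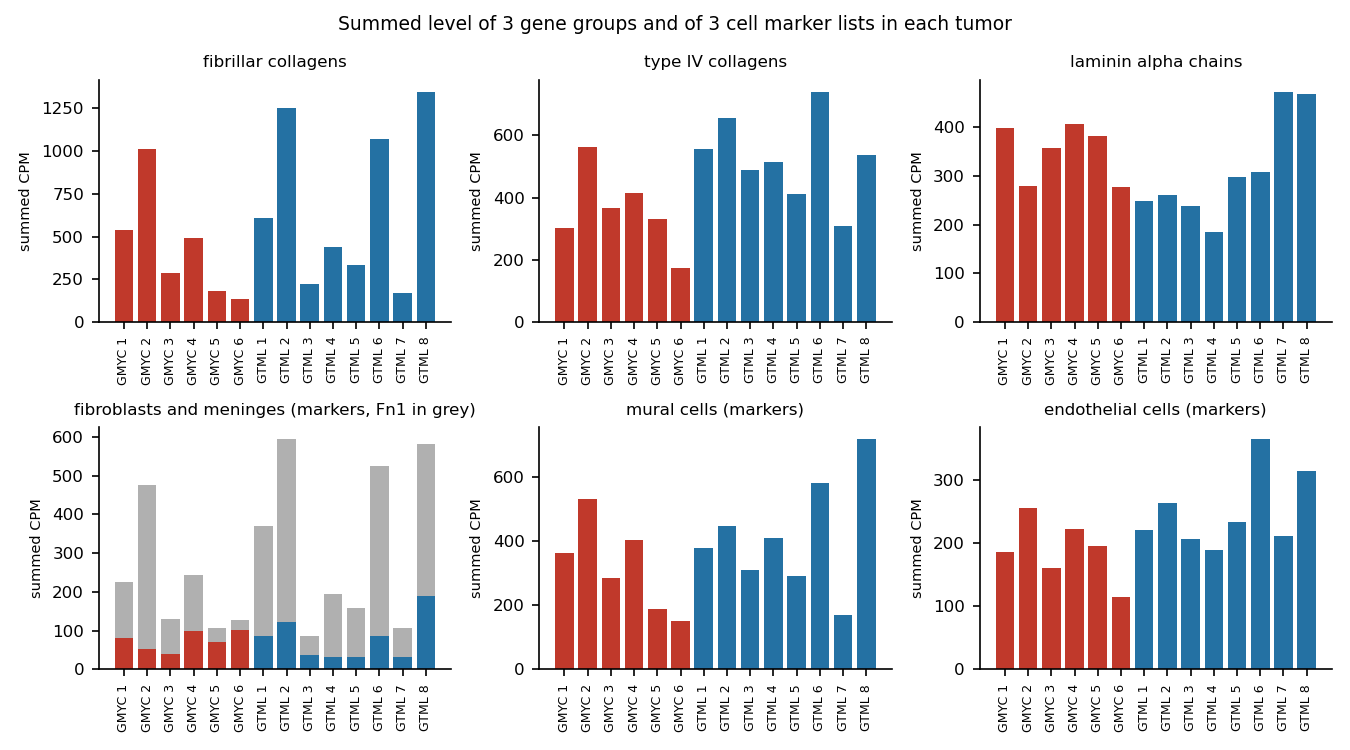
Summed CPM in each tumor (GMYC red, GTML blue) of 3 gene families (top) and of 3 lists of cell markers (bottom), with Fn1 in grey on top of the other markers of fibroblasts and meninges. Fibrillar collagens and Fn1 are both highest in GMYC tumor 2 among GMYC tumors and in GTML tumors 2, 6 and 8 among GTML tumors. The other markers of that list sum to 53.3 CPM in GMYC tumor 2, and laminin alpha chains are highest in GTML tumors 7 and 8.

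Type IV collagens, the sheet of the basement membrane, had 5 of 6 genes with a higher mean in GTML tumors, 2 of them at an adjusted p under 0.05. Col4a1 had 78.8, 157.7 and 336.6 CPM as lowest, median and highest in GMYC tumors and 152.0, 250.4 and 388.2 in GTML tumors. Only GMYC tumor 2 exceeded the GTML median, and the log2 fold change was 0.53 ± 0.28 with an adjusted p of 0.175. Col4a2 had 33.1, 93.5 and 209.8 CPM in GMYC and 91.9, 209.4 and 291.2 in GTML tumors (log2 fold change 0.93 ± 0.33, adjusted p = 0.0564). The ratio of Col4a1 to Col4a2, both per kb, was 1.31 to 2.11 in GMYC tumors (median 1.497) and 0.762 to 1.57 in GTML tumors (median 1.12), and these ranges overlap. The 2 genes share 22 exon bases on opposite strands, and whether reads were counted by strand is not given in the sources used here.

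Col4a3 and Col4a4 were the type IV chains past an adjusted p of 0.05. With Col4a5 they form the type IV collagen of kidney and lung, and both were at low levels here. Col4a4 had 0.71, 1.05 and 1.75 CPM as lowest, median and highest in GMYC tumors, from 5 to 13 reads, and 0.91, 3.74 and 12.7 CPM in GTML tumors. Of the GTML tumors, 7 of 8 lay above all GMYC tumors, GTML tumor 4 being the other, and the log2 fold change was 1.98 ± 0.49 with an adjusted p of 0.0130. Col4a3 had 0.14, 0.36 and 0.57 CPM in GMYC tumors, from 1 to 4 reads, and 0.49, 1.03 and 1.89 in GTML tumors, from 3 to 10 reads (log2 fold change 1.58 ± 0.43, adjusted p = 0.0191). So few reads give no firm ratio, and 5.65% of its exon bases are shared with the transcript C430014B12Rik on the other strand. Both passed at an adjusted p under 0.01 without GTML tumor 2.

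Col4a5 and Col4a6 are the X-linked pair. Col4a6 had 4.08 to 60.4 CPM in GMYC tumors and 2.14 to 130.6 in GTML tumors, with the highest value in GTML tumor 3, where fibrillar collagens were low. Markers of endothelial cells, a source of vascular Col4a1 and Col4a2, summed to 115.4 to 255.4 CPM in GMYC tumors (12 of 12 tested) and 189.7 to 365.5 in GTML tumors. Of these, 8 were higher on average in GTML tumors, and 2 of them passed at an adjusted p under 0.05 (Kdr and Esam), against 11.5% of all genes. The other 4 (Cdh5, Tie1, Cldn5 and Egfl7) were higher on average in GMYC tumors, with log2 fold changes of -0.075, -0.248, -0.668 and -0.35, and none passed at that limit. Pecam1 had 23.9 ± 4.95 CPM in GMYC and 30.7 ± 5.98 in GTML tumors (adjusted p = 0.144). The part of endothelial cells in the type IV collagen levels was not tested.

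FACIT collagens, which sit on the surface of fibers, held the single gene that passed both limits. Col9a3, a chain of the cartilage collagen type IX, had 2.91, 7.31 and 9.62 CPM as lowest, median and highest in GMYC tumors and 8.82, 21.4 and 30.1 in GTML tumors. GTML tumor 1 (8.82 CPM) lay inside the GMYC range and the other 7 above it. The means were 6.91 ± 2.75 (SD, n = 6) and 19.7 ± 7.53 (SD, n = 8), a log2 fold change of 1.51 ± 0.33 with an adjusted p of 0.00849 in edgeR. Leaving out 1 tumor at a time gave log2 fold changes from 1.35 to 1.63 and adjusted p from 0.00498 to 0.0221. It no longer passed without GMYC tumor 1, 3, 4, 5 or 6 or without GTML tumor 5, 6, 7 or 8. Of its exon bases, 6.07% are shared with Tcfl5 on the opposite strand, and reads of the 2 genes there cannot be told apart unless strand was used. The other chains of type IX, Col9a1 and Col9a2, had adjusted p of 0.143 and 0.247.

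Col20a1, another FACIT chain, had 4.28, 9.94 and 17.5 CPM in GMYC tumors and 6.67, 26.7 and 58.4 in GTML tumors (log2 fold change 1.56 ± 0.46, adjusted p = 0.0276). GTML tumors 2 (6.67 CPM) and 4 (14.1 CPM) were inside the GMYC range and the other 6 above it. The adjusted p was above 0.05, at most 0.0632, without GMYC tumor 1, 2 or 3 or without GTML tumor 7. Its profile within GTML differed from that of the fibrillar collagens, with the highest values in GTML tumors 3 and 7. Col12a1, which coats type I fibers, followed Col1a1 more closely, from 9.19 to 204.3 CPM in GMYC and from 11.7 to 221.0 CPM in GTML tumors (adjusted p = 0.464).

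Among the network and anchoring collagens, Col7a1, the anchoring fibril collagen of skin, had 9.94, 15.7 and 19.4 CPM in GMYC tumors and 6.18, 39.8 and 64.0 in GTML tumors (log2 fold change 1.19 ± 0.42, adjusted p = 0.0563). GTML tumors 1 and 2 lay within or below the GMYC range, tumor 4 also within it, and the other 5 lay above. Col8a1, a network collagen of vessels, had 2.41 to 138.3 CPM in GMYC tumors and 67.9 to 160.5 in GTML tumors (log2 fold change 1.52 ± 0.62, adjusted p = 0.0873). Without GMYC tumor 2, which held the 138.3, Col8a1 passed both limits. Type VI collagens, the beaded filaments, had 6 of 6 genes with higher means in GTML tumors and a median log2 fold change of 1.11, and none of them passed at an adjusted p under 0.05.

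Transmembrane collagens held the strongest difference in the other direction. Col17a1, which anchors epithelial cells to the basement membrane, had 35.6, 82.3 and 160.3 CPM as lowest, median and highest in GMYC tumors and 10.4, 29.5 and 59.2 in GTML tumors. GMYC tumor 2 (35.6 CPM) was inside the GTML range, and the other 5 lay above all GTML tumors. The log2 fold change was -1.46 ± 0.42 and the adjusted p 0.0237. Leaving out 1 tumor at a time gave adjusted p from 0.0158 to 0.0567, above 0.05 without GMYC tumor 5 or 6. The other 3 transmembrane chains, Col13a1, Col23a1 and Col25a1, had higher means in GTML tumors, with log2 fold changes of 1.34, 1.39 and 0.84 and adjusted p of 0.0581, 0.0660 and 0.231. Multiplexin collagens, whose ends are cut off as endostatin-like fragments, differed little: the log2 fold change was 0.24 ± 0.46 for Col15a1 and 0.31 ± 0.35 for Col18a1.

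**Figure D4:**
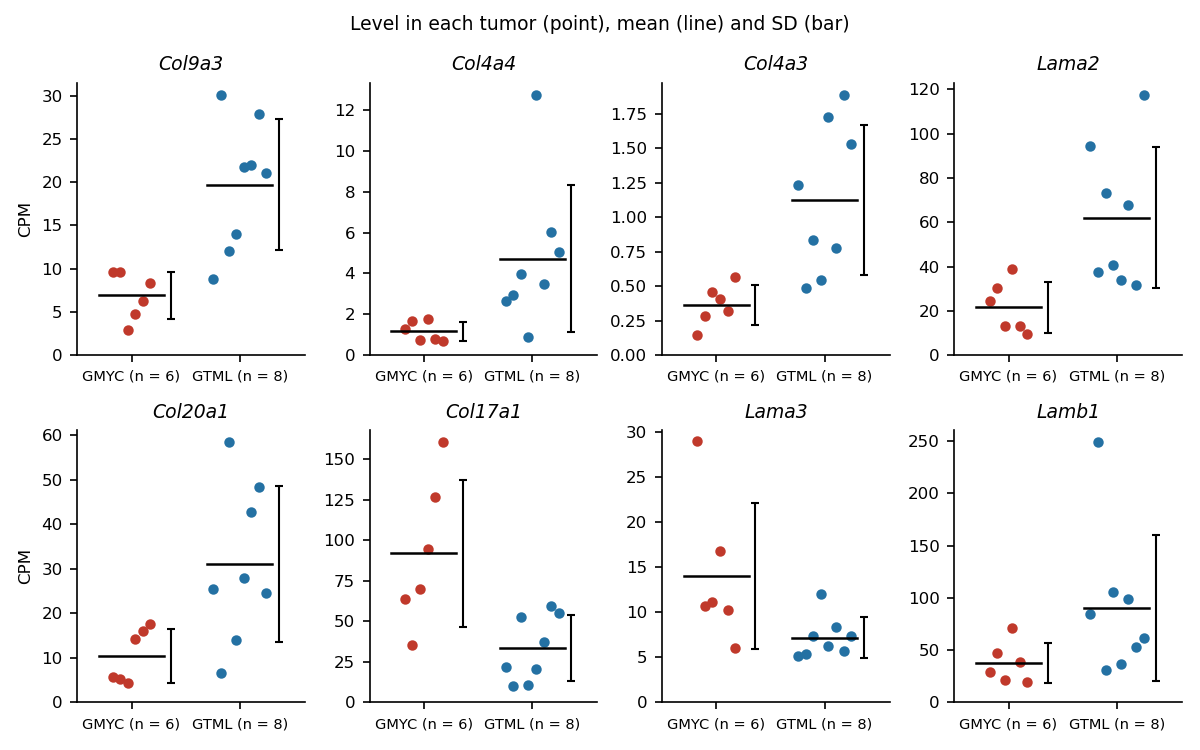
CPM in each tumor (points), mean (line) and SD (bar) in 6 GMYC and 8 GTML tumors for 8 genes. In each panel at least 1 tumor of one model lies inside the range of the other: for Col9a3 it is GTML tumor 1 (8.82 CPM), for Col17a1 it is GMYC tumor 2 (35.6 CPM), and for Lamb1 GTML tumor 2 (248.7 CPM) stands far above the rest.

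Laminin alpha chains, which carry the sites for cell receptors, moved in different directions: 2 of 5 had higher means in GTML and 3 in GMYC tumors. Lama2, the alpha chain of muscle, nerve and glial basement membranes, had 9.47, 18.8 and 39.1 CPM as lowest, median and highest in GMYC tumors and 31.7, 54.3 and 117.5 in GTML tumors. The ranges met between 31.7 and 39.1 CPM, where GMYC tumor 4 lay above 3 GTML tumors, and the log2 fold change was 1.53 ± 0.38 with an adjusted p of 0.0138. It passed at 0.01 without GTML tumor 2 (adjusted p = 0.00805). An antisense transcript, Gm48084, shares 3.86% of its exon bases.

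Lama3, an alpha chain of epithelia, had 6.08, 10.9 and 29.0 CPM in GMYC tumors and 5.11, 6.79 and 12.04 in GTML tumors (log2 fold change -0.96 ± 0.32, adjusted p = 0.0416). The 29.0 CPM were in GMYC tumor 1, and without that tumor the adjusted p reached 0.146, the highest of the fits that left out 1 tumor. It was above 0.05 without GMYC tumor 1, 3, 4 or 5 or without GTML tumor 1, 3, 5, 6, 7 or 8. Among tumors with small nucleolar RNAs below 0.3% of counts the log2 fold change of Lama3 was -0.07, and among those above 0.3% it was -1.67. Lama1, the alpha chain of the early embryo and of the surface of the brain, had 138.0, 216.4 and 263.0 CPM in GMYC tumors and 31.2, 116.4 and 365.2 in GTML tumors (log2 fold change -0.52 ± 0.41, adjusted p = 0.362). GTML tumors 5, 7 and 8, with 140.3, 365.2 and 247.0 CPM, lay within or above the GMYC range, and the lowest 4 GTML tumors held 31.2 to 105.5 CPM. Per kb, Lama1 was above Lama2 in all 14 tumors, by 8.59-fold to 34.0-fold in GMYC tumors (median 21.2) and by 1.41-fold to 19.5-fold in GTML tumors (median 2.80). GTML tumor 7, at 19.5-fold, is the one GTML tumor inside the GMYC range of this ratio, which was computed after the values were seen and was not tested.

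Lama4, an alpha chain of vessels, had 19.7, 27.7 and 39.3 CPM in GMYC tumors and 26.2, 29.9 and 69.4 in GTML tumors (log2 fold change 0.46 ± 0.25, adjusted p = 0.188). Lama5, the most widespread alpha chain of adult tissues, had 45.5, 81.7 and 101.2 CPM in GMYC tumors and 22.6, 46.4 and 133.4 in GTML tumors (log2 fold change -0.45 ± 0.35, adjusted p = 0.361). The highest Lama5 level was in GTML tumor 2, which had the lowest Lama1 level.

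Of the beta and gamma chains, none passed at an adjusted p under 0.05. Lamb1, the beta chain of most early laminins, had 19.7, 34.0 and 70.9 CPM in GMYC tumors and 30.6, 73.3 and 248.7 in GTML tumors (log2 fold change 1.24 ± 0.44, adjusted p = 0.0528). The 248.7 CPM were in GTML tumor 2, against 105.4 in the next, and without it the log2 fold change was 0.83 with an adjusted p of 0.0774. Lamb2, the beta chain of mature membranes, had 17.96, 32.1 and 51.5 CPM in GMYC and 13.4, 30.3 and 64.7 in GTML tumors (log2 fold change -0.06 ± 0.39). Lamb3, part of an epithelial laminin with Lama3, had 0 to 0.94 CPM in GMYC and 0.18 to 2.00 CPM in GTML tumors, at most 12 reads in a tumor (log2 fold change 1.75 ± 0.67, adjusted p = 0.0700).

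Lamc1, the gamma chain shared by most laminins, was the steadiest chain, with 72.4, 141.9 and 193.8 CPM in GMYC tumors and 137.4, 149.6 and 219.2 in GTML tumors (log2 fold change 0.21 ± 0.17, adjusted p = 0.377). The 72.4 CPM were in GMYC tumor 6. Lamc3 had 0, 1.03 and 17.0 CPM in GMYC tumors, 17.0 of them in GMYC tumor 4, and 0.38, 2.88 and 11.8 CPM in GTML tumors (log2 fold change 0.09 ± 0.87). Of the exon bases of Lamc3, 6.27% are shared with the antisense gene Gm13441.

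Chains that are built into the same molecule were paired, and Col1a1 was also paired with Col3a1, a chain of a different collagen. Levels were compared across tumors within each model, for 8 pairs and 16 correlations of log2 CPM. Exact two-sided permutation tests were adjusted over the 16. These points share library depth and tumor composition. Col4a1 and Col4a2 had Pearson's r = 0.987 in GMYC tumors (exact permutation p = 0.00278, adjusted 0.00741; Spearman's rho = 1.00, p = 0.00278, adjusted 0.0193). In GTML tumors r was 0.836 (exact permutation p = 0.00890, adjusted 0.0158; rho = 0.762, p = 0.0368, adjusted 0.0452). Without the 2 tumors farthest from the Col4a1 median, r was 0.990 and 0.771.

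Col1a1 and Col3a1 had r = 0.997 in GMYC tumors (exact permutation p = 0.00139, adjusted 0.00444; rho = 1.00, p = 0.00278, adjusted 0.0193) and r = 0.922 in GTML tumors (p = 0.000744, adjusted 0.00397; rho = 0.881, p = 0.00724, adjusted 0.0193). Without the 2 farthest tumors r was 0.991 and 0.911. Col1a1 and Col1a2 had r = 0.906 (exact permutation p = 0.0139, adjusted 0.0202; rho = 0.943, p = 0.0167, adjusted 0.0267) and r = 0.967 (p = 0.00057, adjusted 0.00397; rho = 0.881, p = 0.00724, adjusted 0.0193), and 0.980 and 0.961 without the farthest tumors. In GMYC tumor 6 Col1a2 was 9.47 times Col1a1 per kb, while the median of this ratio was 1.00 in GMYC and 0.990 in GTML tumors. Col5a1 with Col5a2 had r = 0.951 in GMYC (exact permutation p = 0.00556, adjusted 0.0111; rho = 0.886, p = 0.0333, adjusted 0.0444) and 0.930 in GTML tumors (p = 0.00109, adjusted 0.00437; rho = 0.881, p = 0.00724, adjusted 0.0193). Col6a1 with Col6a2 had r = 0.958 (exact permutation p = 0.0111, adjusted 0.0178; rho = 0.943, p = 0.0167, adjusted 0.0267) and 0.984 (p = 0.000198, adjusted 0.00318; rho = 0.881, p = 0.00724, adjusted 0.0193). Without the 2 farthest tumors r was 0.984 and 0.892 for the type V pair and 0.743 and 0.959 for the type VI pair.

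The remaining pairs did not move together in both models. Col4a5 and Col4a6 had r = 0.971 in GMYC tumors (exact permutation p = 0.00417, adjusted 0.00952; rho = 0.943, p = 0.0167, adjusted 0.0267), with 0.850 without the 2 farthest tumors. In GTML tumors r was 0.698 (exact permutation p = 0.0484, adjusted 0.0596; rho = 0.643, p = 0.0962, adjusted 0.110), and it rested on GTML tumors 2 and 3, since r was 0.165 without them. Col4a3 and Col4a4, from few reads, had r = -0.575 in GMYC (exact permutation p = 0.244, adjusted 0.244; rho = -0.600, p = 0.242, adjusted 0.258) and 0.757 in GTML tumors (p = 0.0204, adjusted 0.0272; rho = 0.786, p = 0.0279, adjusted 0.0406), and -0.609 and 0.840 without the farthest tumors. Lamb1 and Lamc1 had r = 0.655 in GMYC tumors (exact permutation p = 0.150, adjusted 0.160; rho = 0.943, p = 0.0167, adjusted 0.0267) and 0.667 in GTML tumors (p = 0.0729, adjusted 0.0833; rho = 0.452, p = 0.268, adjusted 0.268). In GTML tumors r fell to 0.114 without GTML tumor 2 alone and to -0.320 without GTML tumors 2 and 3. The relation in GTML tumors thus rested on GTML tumor 2. In GMYC tumors r was 0.779 without the farthest tumors. Whether r differed between the models was not tested. Among the 6 GTML tumors with small nucleolar RNAs below 0.3% of counts, r was 0.925 for Col4a1 and Col4a2 and 0.906 for Col1a1 and Col3a1. The other sides of that split hold 4 and 2 GMYC and 2 GTML tumors, fewer than the 6 taken as the least for a tested correlation. The values without the 2 farthest GMYC tumors also rest on 4 tumors and carry no test, and for Col1a1 these are the 4 GMYC tumors above 0.3%.

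**Figure D5:**
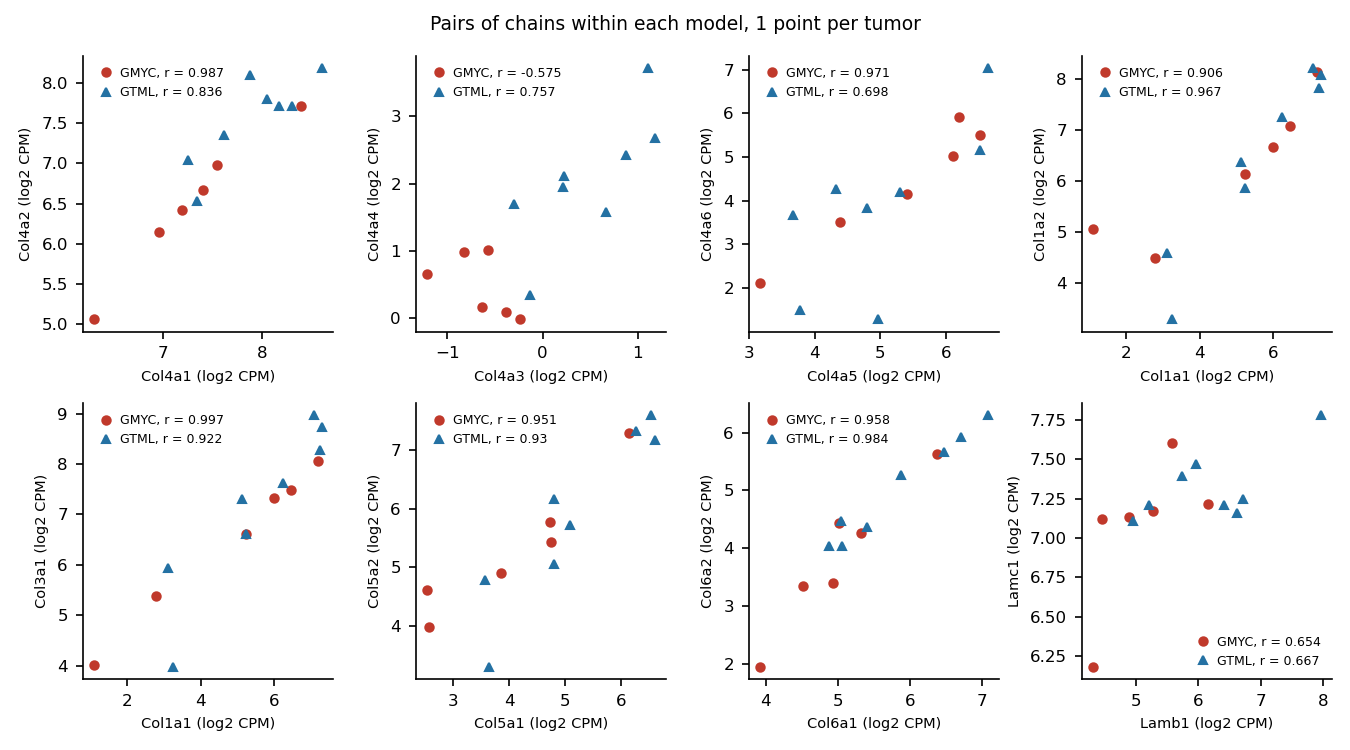
Log2 CPM of 8 pairs of chains, 1 point per tumor (GMYC circles, GTML triangles), with Pearson's r within each model in the legend. Type I, III, V and VI pairs lie along lines (r of 0.906 to 0.997), while Col4a3 with Col4a4 in GMYC tumors (r = -0.575) and Lamb1 with Lamc1 do not.

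Other genes of the matrix pathway were read from the same fit in 4 lists. In that fit 2.11% of all genes passed both limits as higher in GTML tumors and 1.10% as higher in GMYC tumors. Of 12 basement membrane partners, 1 passed both limits, higher in GTML tumors. Papln, which encodes papilin, had 0.43, 0.95 and 1.75 CPM as lowest, median and highest in GMYC tumors and 2.50, 6.43 and 17.1 in GTML tumors. The ranges did not overlap, and the log2 fold change was 2.85 ± 0.50 with an adjusted p of 0.00355. It did not pass without GMYC tumor 3 or 5. The perlecan gene Hspg2 had 70.8 ± 42.0 CPM in GMYC and 156.3 ± 144.2 in GTML tumors (adjusted p = 0.110), and the nidogen gene Nid1 34.6 ± 16.7 and 57.9 ± 33.1 (adjusted p = 0.148). Of the 12 partners, 10 had higher means in GTML and 2 in GMYC tumors. These 2 were Egflam, with 209.1 ± 60.4 and 76.5 ± 62.0 CPM (log2 fold change -1.45 ± 0.44, adjusted p = 0.0318), and Agrn (-0.19 ± 0.20, adjusted p = 0.485). Egflam passed both limits with limma-voom, with the small nucleolar RNA term and among tumors above 0.3%.

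Of 13 receptor genes tested, 12 had higher means in GTML tumors and none passed both limits. Itga10, the alpha subunit of a collagen-binding integrin, had the smallest p of the list, with 1.99 to 6.33 CPM in GMYC tumors and 6.35 to 10.9 in GTML tumors (log2 fold change 1.01 ± 0.26, adjusted p = 0.0148). Of 26 genes of collagen folding and processing, none passed both limits. Plod3, a lysyl hydroxylase and glycosyltransferase that modifies collagen chains, had 38.7, 51.4 and 56.0 CPM in GMYC tumors and 62.2, 74.1 and 87.8 in GTML tumors, with ranges that did not overlap, and a log2 fold change of 0.59 ± 0.11 (adjusted p = 0.00573), which is under the limit on the fold. Of 11 genes of matrix degradation, none passed both limits. Mmp2, a gelatinase, had 5.09 to 18.3 CPM in GMYC and 9.67 to 140.8 in GTML tumors (log2 fold change 1.72 ± 0.56, adjusted p = 0.0405, and between 0.0275 and 0.0880 when 1 tumor was left out). Without GTML tumor 2, which held the 140.8 CPM, its log2 fold change was 0.955, and with a covariate from Y-linked genes it was 0.753.

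Markers of other cells were read in the same way. None of the markers of microglia and macrophages (9 tested), astrocytes (7), oligodendrocytes (7), choroid plexus (5) or mature cerebellar neurons (5) passed both limits, nor did the 7 tested markers of Group 3 tumor cells. All 7 astrocyte markers had higher means in GMYC tumors, summing to 802.8 to 1376 CPM there and 539.5 to 965.2 in GTML tumors. Most of these sums came from Slc1a2, with 701.9 ± 102.8 CPM in GMYC and 587.3 ± 156.1 in GTML tumors. Slc1a2 is the gene of the transporter Glt1, whose promoter drives both transgenes. How far the sums reflect astrocytes was not tested. Of 6 red blood cell markers, 3 hemoglobin genes (Hba-a1, Hbb-bs and Hbb-bt) passed as higher in GMYC tumors, against 1.10% of all genes. Alas2 and Slc4a1 of that list had higher means in GTML tumors (log2 fold changes 0.515 and 0.865, adjusted p 0.276 and 0.302). The list summed to 53.9 to 177.6 CPM in GMYC and 42.0 to 135.6 in GTML tumors, of which Alas2 made up 35.5 ± 16.6 and 50.8 ± 30.0 CPM. The part of these cells in the collagen and laminin levels was not tested.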

How the data were processed

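RNA of 6 GMYC and 8 GTML tumors was analysed. The authors aligned reads to mm9 with STAR and Bowtie, counted them per gene with featureCounts, and deposited whole-number counts without normalization; strand and duplicate handling are not given in the sources used here. A further 18 count columns that match no sample label were not used. Ensembl identifiers were matched to GENCODE for GRCm38 for symbols, gene types and exon lengths (32620 of 37310 genes, 87.4%), and promoter windows were those of RefSeq for GRCm38.p6.

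Differences between models came from the quasi-likelihood test of edgeR 4.0.16 (R 4.3.3) after TMM scaling, with Benjamini-Hochberg adjustment over all genes tested. A gene was tested if its CPM exceeded 1 in 3 or more tumors. CPM are TMM-scaled, and log2 CPM used a prior count of 2. Levels carry SDs and fold changes SEs. Correlations were tested by exact permutation within each model. Alternatives were DESeq2 1.42.0, limma-voom (limma 3.58.1), other scalings and filters, terms for technical splits, the replicate number as a block, and leaving out each tumor. On simulated counts the fit was tested first. Replicates are tumors labelled as separate; the labels do not tie them to litters, and no pair of libraries was alike within sampling noise (lowest chi-square per degree of freedom 6.23). Counts per tumor were 4602294 to 7279811, and 1 read is 0.135 to 0.216 CPM.

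The genes named are Col4a1, Col1a1, Lamb1, Col4a2, Col1a2, Col3a1, all laminin chains but one, the 10 with the smallest p, those that passed or did not overlap, and in each partner list those that passed and the one with the smallest p. Col8a1, Col10a1, Col12a1, Col4a5, Col4a6, Col23a1, Col13a1, Col25a1, Col9a1, Col9a2, Col15a1, Col18a1, Hspg2, Nid1, Kdr, Esam, Pecam1, Fn1, Dcn and Lum fall outside that rule and were named after their values were seen. The same holds for Pdgfra, Egflam, Agrn, Cdh5, Tie1, Cldn5, Egfl7, Slc1a2, Hba-a1, Hbb-bs, Hbb-bt, Alas2 and Slc4a1. The results of 1 member are not reported here, in the text or the figures, and counts over the members include it. Members, lists and pairs were chosen with earlier results of these data known.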

Additional observations from a re-analysis of the deposited data

Results flagged for a closer look

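Levels of the named chains were examined for single tumors far from the others of their model, by the gap to the nearest tumor over the range of the model, in 42 sets of 6 or 8 tumors. If values were normally distributed, chance would mark about 1 in 20 such sets, or 2.1 of 42, and 5 were marked. CPM are skewed in some sets, such as Lamc3 in GMYC tumors (mean 3.53, SD 6.61), and all 5 marks are highest values. The 5 can therefore not be weighed against 2.1. Lamb1 stood at 248.7 CPM in GTML tumor 2 against 105.4 in the next (gap over range 0.657). Col4a4 stood at 12.7 CPM in GTML tumor 5 against 6.04 (0.566), and Lama3 at 12.04 CPM in GTML tumor 4 against 8.34 (0.534). Lamc3 stood at 17.0 CPM in GMYC tumor 4 against 1.58 (0.907) and at 11.8 CPM in GTML tumor 8 against 4.76 (0.615). Causes were not tested.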

How the results depend on the processing

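The number of collagen and laminin genes that passed as higher in GTML tumors (1 with edgeR) was 4 with DESeq2 (Col4a4, Col9a3, Col20a1 and Lama2, when 6.24% of all genes passed), 5 at an adjusted p under 0.05 with no fold limit, and 0 with no filter on low counts (0.819% of all genes), with the replicate block (0.00970%), with the small nucleolar RNA split as a term (0.804%), among tumors above 0.3% (0%) and with a covariate from Y-linked genes (0.252%). Leaving out each tumor gave 0 to 6. The number that passed as higher in GMYC tumors (0) was 1 with DESeq2 (2.75% of all genes) and 1 with the small nucleolar RNA term (0.604%), Col17a1 in both. At an adjusted p under 0.05 the number was 2 (9.71%). For partner genes higher in GTML tumors (1) the number was 4 with DESeq2 (6.24% of all genes) and 2 with limma-voom (1.99%). The number was 6 at an adjusted p under 0.05 (11.5%) and 2 with the small nucleolar RNA term (0.804%). With the replicate block (0.00970%) and with the Y-linked covariate (0.252%) it was 0. Among tumors above 0.3% (0%) or below it (0.416%) it was 0 as well. Leaving out each tumor gave 0 to 2 partner genes, against 0.353% to 4.96% of all genes. For partner genes higher in GMYC tumors (0) the number was 2 at an adjusted p under 0.05 (9.71% of all genes). It was 1 with limma-voom (2.05%), with the small nucleolar RNA term (0.604%) and among tumors above 0.3% (0.0106%). The causes were not tested.

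The median log2 fold change of the members stayed positive under every alternative run, from 0.52 among tumors above 0.3% to 1.33 among tumors below it. Pearson's r of the pairs kept its sign and its side of an adjusted p of 0.05 with a prior count of 0.5 (16 correlations) and, in GTML tumors alone (8 each), without GTML tumor 2 and among tumors below 0.3%. Spearman's rho kept its side in the first and second of these, but among the 6 GTML tumors below 0.3% its adjusted p rose above 0.05, to between 0.0889 and 0.182, for the type I, III, V and VI pairs, Col4a1 with Col4a2 and Col4a3 with Col4a4. Pearson's r of Lamb1 with Lamc1 in GTML tumors kept its sign but not its size. It was 0.667 over all 8, 0.114 without GTML tumor 2 and 0.173 among tumors below 0.3%. The median of all genes was 0.18 without a filter, against 0.04. The log2 fold change turned among tumors above 0.3% for Col7a1 (-0.60), Lama5 (0.18), Lamb2 (0.52) and Lamc3 (-0.38), with the small nucleolar RNA term for Lamb2 (0.076) and with the Y-linked covariate for Lamc3 (-0.70). The fold moved by over 1.5 times for 9 of 25 named genes among tumors below 0.3%, 7 of 23 above it, 5 of 25 with the small nucleolar RNA term, 3 of 24 with the replicate block, 3 of 25 with the Y-linked covariate, Lamc3 with limma-voom (1.41), Lamb3 (2.39) and Lamc3 without GMYC tumor 4 and Mmp2 without GTML tumor 2 (0.955), and for none under the remaining alternatives. Leaving out each tumor gave -0.26 to 0.09 for Lamb2 and -0.44 to 2.15 for Lamc3. The replicate numbers are only numbers: same-numbered tumors had correlated deviations of -0.21 to 0.24, and with the number as a block over tumors 1 to 6 of each model no gene of the 55 tested passed both limits, when 0.00970% of all genes passed as higher in GTML and 0.00485% as higher in GMYC tumors, and the median log2 fold change was 0.71.

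Genes at few reads, such as Col4a3, Lamb3 and Lamc3, are limited by depth. DESeq2 gave no adjusted p for 74 genes of the table. Medians with 6 and 8 tumors are imprecise where 1 tumor stands far off.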
